A study of Mus musculus with 48 samples.

Results

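Twice-a-night (TAN) feeding gave mice their food in 2 windows of the dark phase, and the libraries labelled 8AM were taken when the lights came on, 1 h after the end of the second window. The contrast described here set the 4 TAN libraries of that time label against the 4 ad-lib libraries of the same label, 8 of the 48 libraries in the count table, chosen by their time label alone. All 8 came from the subcutaneous inguinal white adipose tissue (sWAT, labelled iWAT) of C57BL/6 mice aged 8 months, given as C57BL/6J males in the study's text. For 6 months the TAN mice had a feeding window that opened at 9 p.m. and closed at 11 p.m. and a later one that opened at 5 a.m. and closed at 7 a.m., with lights off at 8 p.m. and on at 8 a.m. The ad-lib mice had food at all hours. Each library was a bulk poly-A RNA-seq library, and levels below are in CPM, read counts scaled to library size with TMM factors, which correct for differences in library composition. No agent or allele distinguished the groups, so feeding schedule was the only labelled difference. The study's text gives regular chow for these mice and a modestly lower food intake under TAN than ad-lib feeding. Timing and amount eaten therefore differed together.

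The time label itself had 2 versions. In the study's supplementary expression tables, each of these 8 libraries stood under the same animal name but under 8:00 p.m., 12 h away, in both tables that list them (8 of 8 libraries matched by their values in each). The authors' mean FPKM columns followed the labels of the count table in 12 of 12 groups. The count-table labels are used throughout, and under the other labels the same contrast would fall just before the first nightly feeding window opened.

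After a meal, insulin and glucose drive adipocytes to turn carbohydrate into fat. The enzymes of fatty acid synthesis are regulated largely by SREBP-1c and ChREBP, and those of cholesterol synthesis by SREBP-2, a membrane-bound factor that is released when sterols in the endoplasmic reticulum are low. Inguinal fat also holds stromal, endothelial and immune cells, and the depot surrounds a lymph node. Bulk libraries do not separate a change in RNA per cell from a change in the number of cells of a type.

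Total counts ran from 15651928 to 29354303 in the ad-lib libraries and from 15685080 to 18443146 in the TAN libraries (exact two-sided permutation test of the means, p = 0.657, where the smallest p that 4 against 4 allows is 0.0286). Mitochondrially encoded transcripts took 3.41% to 9.14% of ad-lib counts and 4.75% to 7.02% of TAN counts (exact permutation p = 0.943). The libraries of the 2 diets differed far more in spread than in depth. Between replicates, the biological coefficient of variation was 45.1% for the ad-lib group and 14.9% for the TAN group, against a range of 13.6% to 54.2% over all 12 groups. Pairs of TAN libraries correlated at r = 0.964 to 0.980 across genes, whereas pairs of ad-lib libraries correlated at 0.654 to 0.874. Ad-lib library 2 was the one that resembled TAN, with r = 0.948 to 0.962 to the TAN libraries.

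Markers of adipocytes were abundant in every library, although the series description names the stromal vascular fraction, from which mature adipocytes are normally removed. The 8 adipocyte markers, among them Adipoq and Plin1, summed to between 17028 and 58480 CPM in ad-lib and between 20984 and 26542 CPM in TAN. The 10 lymphocyte markers, among them Cd3e and Ptprc, summed to 374 and 55.8 CPM in ad-lib libraries 1 and 4. In ad-lib libraries 2 and 3 that sum was 1853 and 2193 CPM, and in TAN it was 1440 to 2133 CPM. Ad-lib library 3 had the highest macrophage sum, 3284 CPM against 667 to 1671 CPM in the other ad-lib libraries and 945 to 1247 CPM in TAN. It also had the highest skeletal muscle sum, 917 CPM, where the other ad-lib libraries had 44.0 to 185 CPM and the TAN libraries 21.7 to 130 CPM. Among the 8 stromal markers the sums were 1130 to 3993 CPM in ad-lib and 915 to 2047 CPM in TAN, and for endothelial cells they were 496 to 675 and 480 to 688 CPM. Schwann cell markers summed to 193 to 355 and 176 to 260 CPM. Markers of mammary and skin epithelium were at or near 0, with Krt14, Wap, Krt15 and Flg2 at 0 in all 8 libraries. The log2 fold change of TAN over ad-lib was negative for all 10 muscle markers (median -2.33) and all 8 macrophage markers (median -0.47). It was also negative for all 8 adipocyte markers (median -0.40) and all 5 Schwann cell markers (median -0.20). It was positive for all 10 lymphocyte markers (median 0.47) and mixed for stromal and endothelial ones. Of all genes, 50.8% had a positive value. No marker of these cell types changed at an adjusted p under 0.05 between the diets. What part the uneven lymphocyte, muscle and macrophage RNA had in the results below was not tested except where a value is given.

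**Figure D1:**
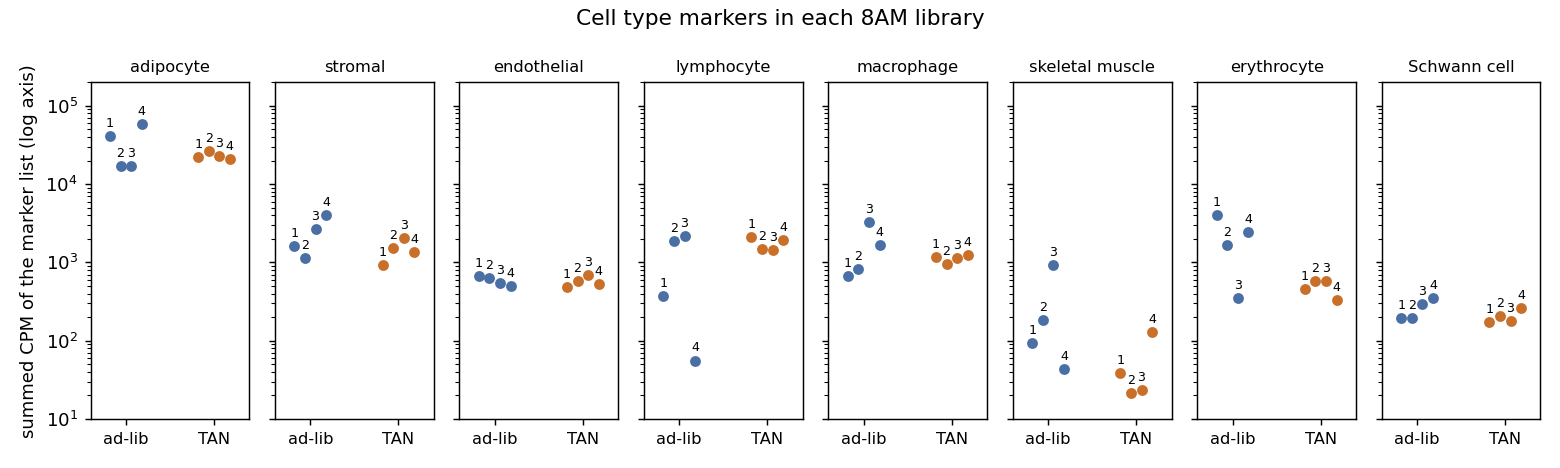
Summed CPM of 8 cell type marker lists in each 8AM library (log axis), with ad-lib in blue, TAN in orange and the replicate number above each point. Ad-lib libraries 1 and 4 sit at 374 and 55.8 CPM for lymphocyte markers, below the other 6 libraries, while the TAN libraries lie close together except for muscle markers, which reach 130 CPM in library 4.

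Of 19977 genes tested across the 48 libraries, 2 rose by more than 2-fold in TAN at 8AM (0.0100% of the genes tested) and 1 fell by more than 2-fold (0.00501%), at an adjusted p under 0.05 in edgeR's quasi-likelihood test. The gene that rose and can be described here was Cyp51, lanosterol 14-alpha-demethylase of the cholesterol pathway, and the gene that fell was Etfbkmt, a lysine methyltransferase that modifies the beta subunit of the electron transfer flavoprotein. The median log2 fold change of all tested genes was 0.01. With no adjustment, 591 genes (2.96%) had higher values in TAN at a p under 0.05, with any fold change, and 723 (3.62%) had lower values. With RLE in place of TMM factors these numbers were 489 higher and 924 lower, and in limma voom they were 1297 and 334, so the balance of the 2 directions depended on the scaling and the test. The lowest library of one diet exceeded the highest of the other for 405 genes with TAN higher (2.03%) and for 209 genes with TAN lower (1.05%).

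Cyp51 (ENSMUSG00000001467, chromosome 5, 4081145 to 4104746, minus strand) stood at 48.9, 43.3, 40.1 and 43.8 CPM in the 4 ad-lib libraries and at 101, 118, 82.9 and 95.2 CPM in the 4 TAN libraries. Every TAN library was above every ad-lib library, and the ad-lib values lay closer together than the TAN values. The means were 44.0 ± 3.67 and 99.3 ± 14.6 CPM (SD, n = 4), a log2 fold change of 1.17 ± 0.23 (SE, adjusted p = 0.0425, edgeR). The call was a near one. With any single library left out, the log2 fold change stayed between 1.06 and 1.23 but the adjusted p rose to between 0.0516 and 0.491. Akap9 overlaps the first 166 bases of the gene on the other strand, and its values of 7.03 to 67.3 CPM in ad-lib and 29.99 to 45.6 CPM in TAN overlapped (log2 fold change 0.56 ± 0.52, adjusted p = 0.899).

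Etfbkmt (ENSMUSG00000039958, chromosome 6, 149139849 to 149151171, plus strand) stood at 31.5, 18.2, 21.3 and 29.0 CPM in ad-lib and at 11.3, 8.37, 8.33 and 11.2 CPM in TAN. The groups did not overlap, and the lowest ad-lib library was 1 of the 2 with abundant lymphocyte markers. Means were 25.0 ± 6.28 and 9.79 ± 1.66 CPM (SD, n = 4), and the log2 fold change was -1.35 ± 0.24 (SE, adjusted p = 0.0152, edgeR). No other annotated gene overlaps it. When 1 library was left out the log2 fold change ran from -1.51 to -1.22, and the adjusted p stayed under 0.05 in 3 of 8 such fits. It passed 0.05 without TAN library 2 (0.140), TAN library 3 (0.145), TAN library 4 (0.0596), ad-lib library 1 (0.0677) or ad-lib library 4 (0.144). Both calls held in a fit with lymphocyte marker level as a covariate (adjusted p = 0.00264 for Cyp51 and 0.00866 for Etfbkmt) and in DESeq2 (0.00086 and 2.86e-05). Neither held in limma voom (0.0864 and 0.147), in a separate edgeR fit of the 8 libraries (0.792 for both) or without ad-lib libraries 1 and 4 (1 for both), where the log2 fold changes were 1.24 and -1.02.

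The promoters of both genes, and that of Hmgcs1, which encodes the synthase of the second step of the pathway, show which promoter elements accompany these values. Each window covers 250 bases before and 50 after the RefSeq start in GRCm38.p6, written 5′ to 3′ along the gene. Capitals mark CCAAT or its reverse complement ATTGG, the CCAAT box bound by NF-Y, and TCACNCCAC, a core of the sterol regulatory element bound by SREBP, searched on both strands with no overlap between the motifs in these windows. Their positions are chr5:4104648-4104947 on the minus strand for Cyp51, chr13:119690101-119690400 on the plus strand for Hmgcs1 and chr6:149141263-149141562 on the plus strand for Etfbkmt.
Cyp51: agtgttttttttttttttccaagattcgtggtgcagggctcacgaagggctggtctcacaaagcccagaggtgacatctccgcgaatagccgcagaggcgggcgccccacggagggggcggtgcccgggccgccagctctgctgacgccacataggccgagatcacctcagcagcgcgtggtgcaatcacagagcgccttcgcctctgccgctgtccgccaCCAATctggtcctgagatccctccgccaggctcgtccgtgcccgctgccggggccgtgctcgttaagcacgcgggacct
Hmgcs1: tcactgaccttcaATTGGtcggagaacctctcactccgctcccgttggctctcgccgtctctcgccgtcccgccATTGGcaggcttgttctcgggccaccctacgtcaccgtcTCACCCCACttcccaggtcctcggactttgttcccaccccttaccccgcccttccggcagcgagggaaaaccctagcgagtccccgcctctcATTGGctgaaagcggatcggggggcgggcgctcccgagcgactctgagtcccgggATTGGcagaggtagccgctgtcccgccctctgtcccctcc
Etfbkmt: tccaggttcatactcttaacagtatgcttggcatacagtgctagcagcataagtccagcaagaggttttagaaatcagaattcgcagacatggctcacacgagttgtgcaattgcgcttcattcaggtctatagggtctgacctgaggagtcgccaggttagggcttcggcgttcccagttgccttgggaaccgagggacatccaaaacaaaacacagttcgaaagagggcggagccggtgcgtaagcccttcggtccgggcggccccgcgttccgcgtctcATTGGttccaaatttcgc
A CCAAT box was in 37.4% of 32851 promoters of this length and in 14 of the 18 promoter windows held for the cholesterol synthesis genes. The longer sterol element TCACNCCAC was in 1.24% of all promoters and, in that list, in Hmgcs1 alone. Only this string was searched, so windows without it, such as that of Cyp51, are not shown to lack other forms of the element. The E-box CACGTG, a site of clock and ChREBP-type factors, was in 7.15% of all promoters and in 3 of those 18 windows, for Dhcr7, Hsd17b7 and Sc5d. A motif match is a description of the letters in the window and not a measurement of binding.

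Most enzymes of cholesterol synthesis had higher values in TAN. Of 20 enzymes, all tested, 17 had a positive log2 fold change, 11 reached an unadjusted p under 0.05 with TAN higher and none with TAN lower, against 2.96% and 3.62% of all genes. In 9 of the 20 the diets did not overlap, with TAN higher each time, where 2.03% of all genes did so. The list's median log2 fold change was 0.75, against 0.01 for all genes, and it stayed between 0.56 and 0.86 when any 1 library was left out. Only Cyp51 passed the adjusted test.

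At the top of the pathway, Hmgcs1 stood at 232, 216, 97.2 and 320 CPM in ad-lib and at 285, 517, 416 and 302 CPM in TAN (log2 fold change 0.81 ± 0.36, unadjusted p = 0.0308). Its groups overlapped through ad-lib library 4. In the mevalonate arm, the decarboxylase Mvd was at 10.04, 9.02, 13.5 and 12.5 CPM in ad-lib and at 22.7, 25.8, 18.6 and 26.6 CPM in TAN, with no overlap (1.05 ± 0.31, unadjusted p = 0.0014, adjusted p = 0.444). The isomerase Idi1 also did not overlap, at 18.4 to 40.4 CPM against 43.6 to 60.1 CPM (0.76 ± 0.30). The 2 mevalonate kinases Mvk and Pmvk had log2 fold changes of 0.26 and 0.65, and neither reached an unadjusted p under 0.05.

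Squalene epoxidase, Sqle, is the second control point of the pathway and the first step that uses oxygen. It stood at 26.0, 27.7, 14.2 and 14.4 CPM in ad-lib and at 43.6, 64.3, 47.7 and 51.1 CPM in TAN. All TAN libraries were above all ad-lib ones, by a log2 fold change of 1.33 ± 0.31 (unadjusted p = 8.66e-05, adjusted p = 0.216). Lanosterol synthase, Lss, which closes the sterol ring in the next step, was at 15.04 to 31.0 CPM in ad-lib and 38.9 to 54.8 CPM in TAN (1.01 ± 0.34). Fdft1, which makes squalene, overlapped between the diets (0.48 ± 0.30).

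After lanosterol, Hsd17b7 was at 12.4 to 18.9 CPM in ad-lib and 26.2 to 40.6 CPM in TAN (1.02 ± 0.32), and Sc5d at 64.3 to 275 and 290 to 534 CPM (0.97 ± 0.42). Dhcr7, the last step of one branch, was at 26.3, 22.4, 21.3 and 19.6 CPM in ad-lib and 40.7, 43.1, 36.1 and 34.1 CPM in TAN, with no overlap (0.78 ± 0.20, unadjusted p = 0.000292, adjusted p = 0.248). Other steps after lanosterol overlapped between the diets. Msmo1, a methylsterol oxidase, had 40.5 to 108 CPM in ad-lib and 72.4 to 79.4 CPM in TAN (0.22 ± 0.30), Ebp had a log2 fold change of -0.24 ± 0.22 and Tm7sf2 one of -0.08 ± 0.37. Fdps was listed at 0.2996 to 2.76 CPM in these libraries. Fdps has processed copies elsewhere in the genome, so its counts are uncertain.

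Sterol uptake and its regulators moved less as a list, with a median log2 fold change of 0.17 over 14 genes and 2 of 14 at an unadjusted p under 0.05 with TAN higher, against 2.96% of all genes. Stard4, a cytosolic sterol carrier, had a log2 fold change of 0.57 ± 0.21 (unadjusted p = 0.0085). Insig1, which retains SREBP in the endoplasmic reticulum and is itself an SREBP target, was at 87.0 to 487 CPM in ad-lib and at 567 to 987 CPM in TAN, without overlap, at a log2 fold change of 1.08 ± 0.56 (unadjusted p = 0.0596). Transcripts of the regulators Srebf2, Scap and Srebf1 had log2 fold changes of 0.49, 0.04 and 0.65, none at an unadjusted p under 0.05.

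Fatty acid synthesis had higher values in TAN for all 13 genes of its list, by a median log2 fold change of 1.10, and 7 of the 13 reached an unadjusted p under 0.05, against 2.96% of all genes. In 4 of the 13 the diets did not overlap, against 2.03% of all genes. None passed the adjusted test. The median moved more with single libraries than that of cholesterol synthesis did, from 0.78 to 1.87, and the highest value came without ad-lib library 1, in which Fasn and Acaca were inside the TAN range.

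Acly makes cytosolic acetyl-CoA from citrate. It stood at 807, 576, 134 and 144 CPM in ad-lib and at 1363, 1968, 1887 and 2011 CPM in TAN (log2 fold change 2.12 ± 0.54, unadjusted p = 0.000298, adjusted p = 0.248). Acss2, which makes acetyl-CoA from acetate, was at 277, 88.0, 53.6 and 77.2 CPM in ad-lib and 302, 365, 377 and 461 CPM in TAN (1.603 ± 0.49, adjusted p = 0.4998). Neither gene overlapped between the diets, although ad-lib library 1 came close to TAN for Acss2. The carboxylase Acaca and the synthase Fasn overlapped. Fasn had 3040, 1354, 390 and 411 CPM in ad-lib and 2382, 2308, 2423 and 4091 CPM in TAN (1.11 ± 0.54, unadjusted p = 0.0459), so that ad-lib library 1 was above 3 of the 4 TAN libraries.

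Elovl6 lengthens palmitate to stearate. It showed the highest log2 fold change of its list, from 226, 70.7, 25.2 and 23.0 CPM in ad-lib to 352, 484, 396 and 498 CPM in TAN (2.33 ± 0.65, adjusted p = 0.361). Without ad-lib library 1 it was 3.45. Elovl5, which acts on polyunsaturated chains, was at 136 to 153 and 149 to 169 CPM (0.10 ± 0.16). The 2 stearoyl-CoA desaturases are given side by side, and the difference between them was not tested. Scd2 was at 323, 283, 199 and 126 CPM in ad-lib and at 652, 955, 759 and 817 CPM in TAN, with no overlap (1.77 ± 0.37, unadjusted p = 2.12e-05, adjusted p = 0.0846), the third largest shift of the list. Scd1 was at 9539 to 25980 CPM in ad-lib and 15742 to 23893 CPM in TAN (0.43 ± 0.52, unadjusted p = 0.414). Per length, by the authors' mean FPKM in TAN, Scd1 was at 4034 and Scd2 at 141. The 2 are close paralogs, and the counting could have shared reads between them.

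Among the genes that esterify fatty acids, 3 of 8 reached an unadjusted p under 0.05 with TAN higher (2.96% of all genes) and none with TAN lower (3.62%), and the median log2 fold change was 0.83. Gpd1, which supplies the glycerol 3-phosphate backbone, was at 573, 516, 182 and 400 CPM in ad-lib and 877, 930, 933 and 1029 CPM in TAN (1.17 ± 0.45, adjusted p = 0.682). The acyltransferase Agpat2 was at 151 to 580 against 740 to 895 CPM (1.03 ± 0.44), and the phosphatidate phosphatase Lpin1 at 40.6 to 262 against 277 to 424 CPM (1.01 ± 0.47). The final acyltransferases split, with Dgat2 at 0.81 ± 0.48 and Dgat1 at -0.19 ± 0.38 on the log2 scale, and their difference was not tested.

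The 20 elasticity genes, a published list of metabolic genes that the study followed in these same libraries, share members with the lists above and so are not independent evidence. Their median log2 fold change was 1.08, and 8 of 20 reached an unadjusted p under 0.05, all with TAN higher, against 2.96% of all genes. The member with the largest fold change was Slc2a5, the fructose transporter GLUT5, at 5.64, 4.63, 0.601 and 1.44 CPM in ad-lib and 30.1, 29.9, 25.9 and 24.6 CPM in TAN. The lowest TAN library was more than 4 times the highest ad-lib library, and the log2 fold change was 3.17 ± 0.77 (unadjusted p = 0.000195, adjusted p = 0.216). Sorl1, a sorting receptor, did not overlap either, at 6.07 to 117 CPM against 124 to 197 CPM (1.17 ± 0.53). Peg3 and Zim1, a pair of neighbouring imprinted zinc finger genes, went the other way at -1.03 ± 0.64 and -1.44 ± 1.15, and the leptin gene Lep was at -0.09 ± 0.61, none at an unadjusted p under 0.05.

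**Figure D2:**
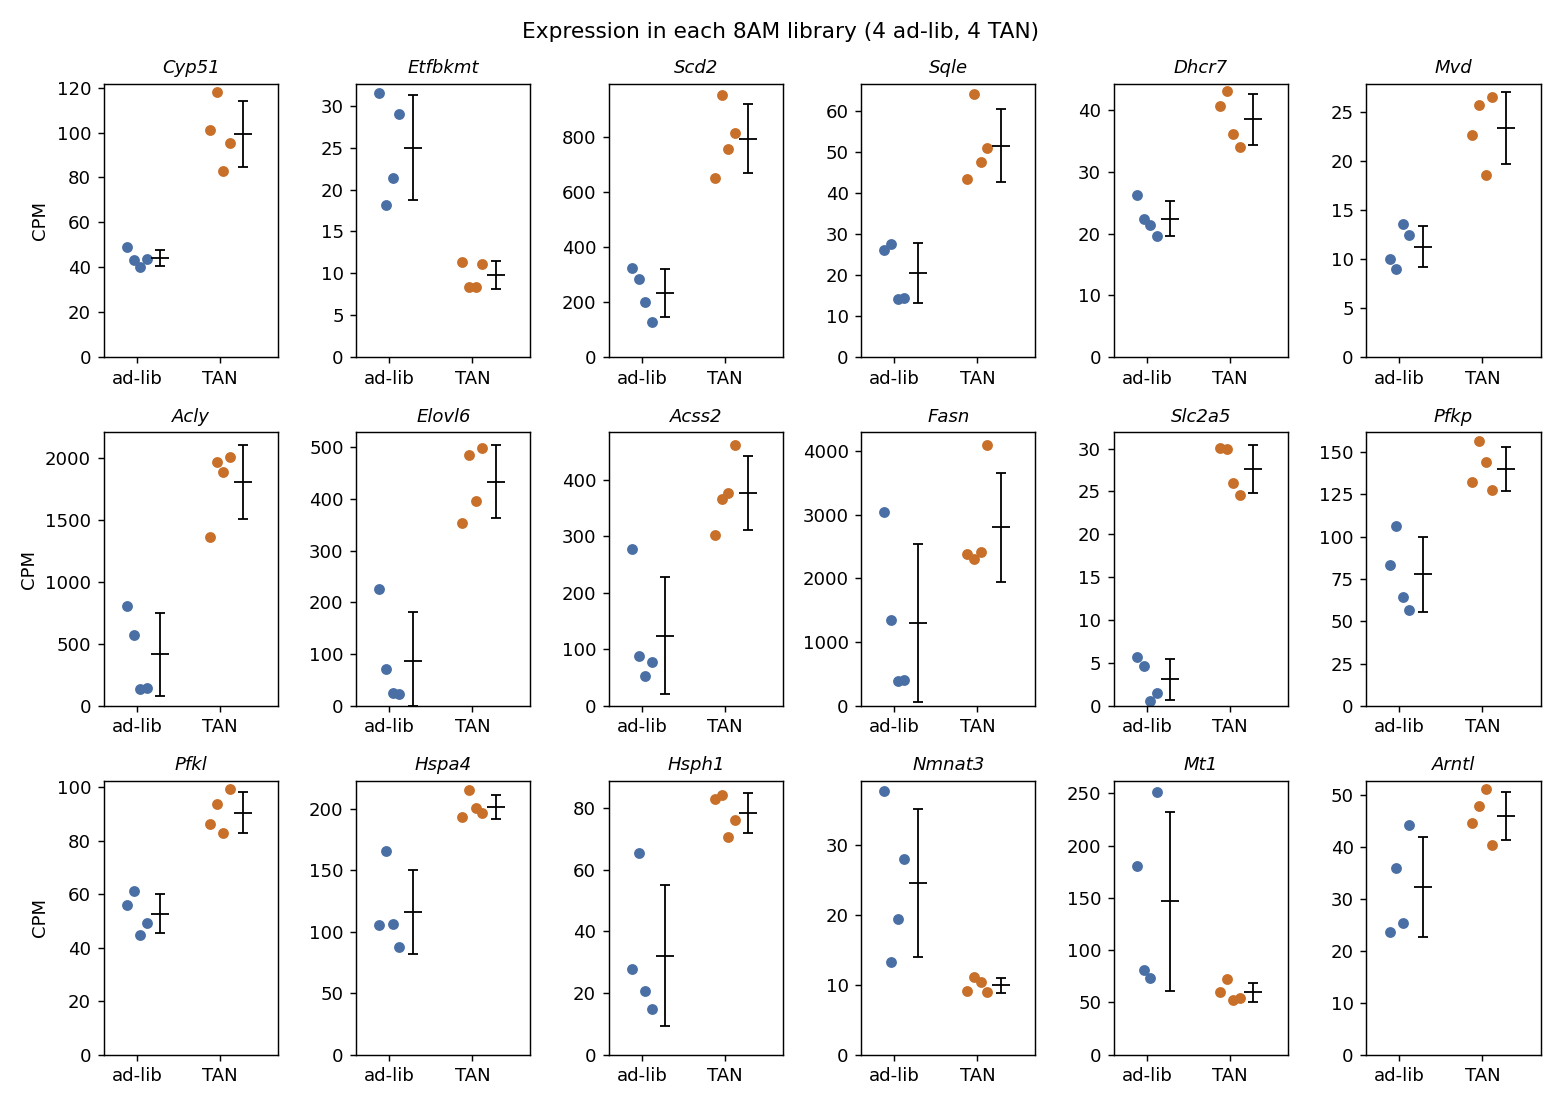
CPM of 18 genes in each 8AM library, with the mean and SD of each diet beside the points (n = 4, bars cut at 0). Cyp51, Sqle, Scd2 and Slc2a5 do not overlap between the diets, and Fasn does, through ad-lib library 1 at 3040 CPM.

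Of 15 glycolysis genes, 4 reached an unadjusted p under 0.05, all with TAN higher, against 2.96% of all genes, and the list's median log2 fold change was 0.22. They were 2 of the isoforms of phosphofructokinase, the committed step, with Pkm and Eno1. The platelet-type isoform Pfkp was at 83.6, 106, 64.5 and 56.8 CPM in ad-lib and at 132, 157, 144 and 128 CPM in TAN (0.85 ± 0.21, unadjusted p = 0.00019, adjusted p = 0.216). The liver-type isoform Pfkl was at 56.0, 61.1, 44.7 and 49.2 CPM in ad-lib and at 86.1, 93.9, 82.8 and 99.5 CPM in TAN (0.78 ± 0.23, unadjusted p = 0.00151). Neither overlapped. The muscle-type isoform Pfkm overlapped at 17.4 to 27.4 and 14.3 to 25.0 CPM (-0.19 ± 0.58).

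At the lower end of glycolysis, Pkm was at 281 to 418 CPM in ad-lib and 476 to 553 CPM in TAN (0.53 ± 0.21) and Eno1 at 373 to 810 and 794 to 904 CPM (0.62 ± 0.24). Pgam1, Pgk1, Tpi1 and Ldha had log2 fold changes between -0.32 and 0.04. Gapdh was counted at 1.88 to 11.4 CPM only, and its many processed pseudogenes make that count uncertain. The 7 genes of the phosphatidylinositol list, which the study picked from these libraries, had a median log2 fold change of 0.56. Pfkl and Pfkp, both already counted in the glycolysis list, were the 2 members at an unadjusted p under 0.05. Both had TAN higher, as did 2.96% of all genes. Akt1 was at 49.6 to 140 CPM in ad-lib and 63.5 to 103 CPM in TAN (0.01 ± 0.28). Btk, a kinase of B cells and myeloid cells, was at 7.87, 37.3, 29.2 and 1.73 CPM in ad-lib and 28.8 to 34.1 CPM in TAN (0.73 ± 0.83), low in the same 2 libraries as the lymphocyte markers. Without those 2 libraries its log2 fold change was -0.08.

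**Figure D3:**
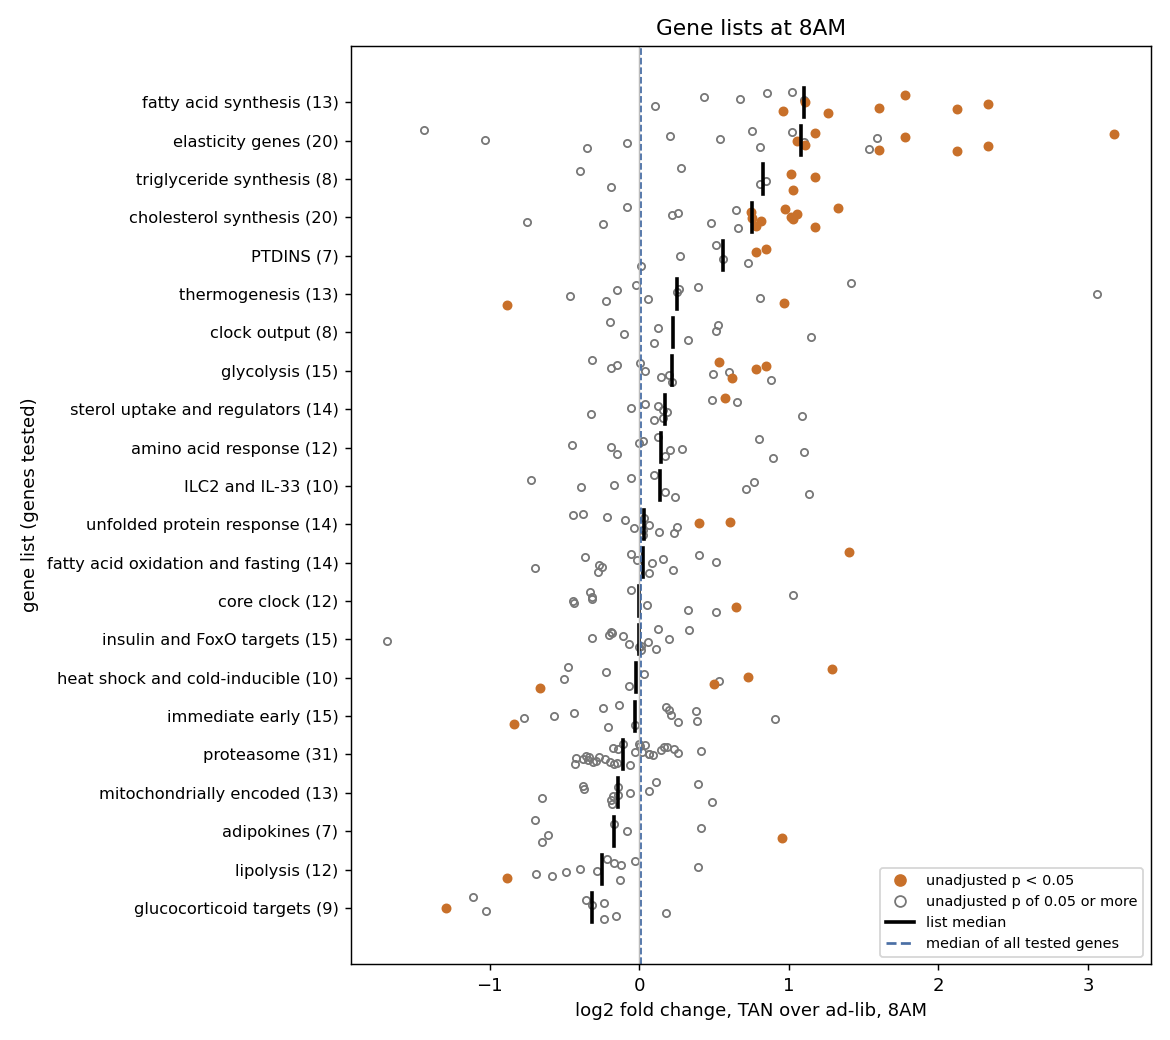
Log2 fold change of the reported members of 22 gene lists at 8AM (TAN over ad-lib), with members at an unadjusted p under 0.05 filled, the median of all tested members as a bar and the median of all genes (0.01) as a dashed line. Fatty acid synthesis (1.10), elasticity genes (1.08), triglyceride synthesis (0.83) and cholesterol synthesis (0.75) have the highest medians.

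Of the heat shock and cold-inducible list, 3 of 10 genes reached an unadjusted p under 0.05 with TAN higher and 1 with TAN lower, and of the unfolded protein response list 2 of 14 did with TAN higher and none with TAN lower, against 2.96% and 3.62% of all genes. The medians of the lists were -0.02 and 0.03. Hspa4, an Hsp110-family chaperone named for its small p and in neither list, was at 105, 165, 106 and 87.4 CPM in ad-lib and at 193, 216, 201 and 197 CPM in TAN (0.80 ± 0.18, unadjusted p = 8.78e-05, adjusted p = 0.216). Its relative Hsph1 was at 27.8, 65.4, 20.7 and 14.7 CPM against 83.0, 84.3, 70.5 and 76.0 CPM (1.29 ± 0.35, unadjusted p = 0.000691). Ad-lib library 2 was the one nearest to TAN for both. The constitutive Hsp70 gene Hspa8 was at 1065 to 1300 CPM in ad-lib and 1744 to 2196 CPM in TAN (0.73 ± 0.28), and Hsp90aa1 at 203 to 313 against 317 to 422 CPM (0.50 ± 0.18).

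In the endoplasmic reticulum, the Hsp70 protein encoded by Hspa5 (BiP) was at 510, 457, 367 and 328 CPM in ad-lib and at 580, 743, 642 and 564 CPM in TAN (0.61 ± 0.18, unadjusted p = 0.00162, adjusted p = 0.448). Srp72, in no list, is a subunit of the signal recognition particle that brings new secretory proteins to that membrane. It was at 55.5, 88.8, 65.9 and 39.4 CPM against 95.3, 111, 108 and 108 CPM (0.76 ± 0.17, unadjusted p = 7.07e-05). The stress-inducible Hspa1a and Hspa1b were under 4 CPM in every library, and the stress-response factors Ddit3 and Atf4 had log2 fold changes of 0.03 ± 0.22 and 0.02 ± 0.21. Cirbp, a cold-inducible RNA-binding protein, was at 156 CPM in ad-lib library 3 and at 47.2 to 70.4 CPM in the other 7 (-0.67 ± 0.27).

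Among other genes with no overlap and TAN higher, Kmt5a, the histone H4 lysine 20 monomethyltransferase, was at 74.1, 54.7, 40.8 and 64.2 CPM in ad-lib and 111, 128, 115 and 120 CPM in TAN (1.02 ± 0.25, unadjusted p = 0.000178). Spc25, a kinetochore subunit of dividing cells, was at 0.984 to 2.17 CPM against 4.66 to 5.51 CPM (1.72 ± 0.42). Ucp3, a mitochondrial carrier that rises with fatty acid supply, was at 20.6, 30.7, 8.90 and 14.9 CPM in ad-lib and 48.2, 62.4, 47.3 and 40.1 CPM in TAN (1.40 ± 0.46, unadjusted p = 0.00446). On the fatty acid oxidation and fasting list, Ucp3 was the 1 member of 14 to reach an unadjusted p under 0.05, against 2.96% of all genes with TAN higher. The list's median was 0.02.

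Beyond Etfbkmt, genes with lower values in TAN were taken by smallest unadjusted p among those with no overlap between the diets. Their lack of overlap was therefore part of the choice. These genes had varied functions, and none passed the adjusted test. Nmnat3, which makes NAD in mitochondria, was at 37.6, 13.3, 19.4 and 27.9 CPM in ad-lib and at 9.04, 11.1, 10.4 and 8.98 CPM in TAN (-1.31 ± 0.32, unadjusted p = 0.000194, adjusted p = 0.216). The metallothionein Mt1, which binds zinc and responds to glucocorticoids, was at 181, 80.9, 73.2 and 252 CPM against 60.0, 72.6, 52.1 and 54.0 CPM (-1.30 ± 0.35, unadjusted p = 0.000606). Its gap between the groups was narrow, and without ad-lib libraries 1 and 4 its log2 fold change was -0.38. Others taken this way were Gfod2 (-0.95 ± 0.25), Ypel3 (-0.71 ± 0.19) and Slc8b1, a mitochondrial sodium/calcium exchanger (-0.61 ± 0.17). Fbxo31, a ubiquitin ligase adaptor (-0.86 ± 0.24), and Gstt3, a glutathione transferase (-1.19 ± 0.33), were also among them. So were the low-abundance Smkr-ps (-1.97 ± 0.55) and Ugt3a2 (-3.53 ± 0.99). Ugt3a2 counts were 126, 15, 51 and 106 in ad-lib and 10, 9, 3 and 6 in TAN. Without ad-lib libraries 1 and 4 these genes also had smaller negative log2 fold changes. They were -0.74 for Nmnat3, -0.42 for Gfod2, -0.43 for Ypel3, -0.57 for Slc8b1 and -0.65 for Fbxo31. For Gstt3, Smkr-ps and Ugt3a2 they were -0.57, -1.35 and -1.58.

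Red cell transcripts had lower values in TAN. All 5 erythrocyte markers had lower values at an unadjusted p under 0.05, where 3.62% of all genes did, at a median log2 fold change of -2.12. Their sum was 4019, 1684, 347 and 2450 CPM in ad-lib libraries 1 to 4 and 455, 577, 583 and 331 CPM in TAN. Ad-lib library 3 was therefore inside the TAN range and the other 3 were above it. The alpha-globin gene Hba-a1 was at 1398, 630, 115 and 820 CPM in ad-lib and 145, 202, 204 and 110 CPM in TAN (-2.16 ± 0.53, adjusted p = 0.227), and Alas2, the erythroid enzyme of heme synthesis, at 79.3, 41.2, 7.60 and 29.6 against 7.86, 11.4, 10.97 and 6.02 CPM (-2.12 ± 0.52). Hba-a1 and Hba-a2 are near-identical copies whose reads could have been shared. Without ad-lib library 3, Hba-a1 fell by 2.55 and Alas2 by 2.49 on the log2 scale and both passed the adjusted test. That fit left out the ad-lib library inside the TAN range. With any other single library left out, neither gene was called.

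Other lists had few members at an unadjusted p under 0.05. For lipolysis, 11 of 12 genes had a negative log2 fold change, where 50.8% of all genes had a positive one, and the median was -0.25. With TAN lower, 1 of 12 reached an unadjusted p under 0.05, against 3.62% of all genes. That gene was Adrb3, the beta-3 adrenergic receptor, at 890, 304, 137 and 439 CPM in ad-lib and 227, 223, 267 and 240 CPM in TAN (-0.89 ± 0.41). Its log2 fold change was -0.295 without ad-lib library 1 and turned to 0.11 without ad-lib libraries 1 and 4. The median of lipolysis was 0.33 without those 2 libraries, which were the highest in adipocyte markers. The 8 adipocyte markers were themselves all negative, at a median of -0.40. In the thermogenesis list (13 tested, median 0.25), 1 gene reached an unadjusted p under 0.05 with TAN higher and 1 with TAN lower. These shares were 2.96% and 3.62% over all genes. The lower one was again Adrb3. The higher one was Cidea, a lipid droplet protein, at 19.3 to 39.2 against 54.8 to 77.2 CPM with no overlap (0.97 ± 0.42, unadjusted p = 0.0251). Ucp1 was under 1 CPM in every library (0 to 0.425 in ad-lib, 0 to 0.674 in TAN).

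For the ILC2 and IL-33 list, 10 of 13 genes were tested and none reached an unadjusted p under 0.05. Il33 was at 16.3, 16.9, 55.6 and 11.6 CPM in ad-lib and 22.0, 14.7, 25.9 and 27.0 CPM in TAN (-0.17 ± 0.55), and Il5, Il13 and Areg were below the filter on low counts. No gene of the insulin and FoxO list (15 tested, median -0.01), the amino acid response list (12 tested, median 0.15) or the 13 mitochondrially encoded genes (median -0.15) reached an unadjusted p under 0.05. The glucocorticoid list (9 tested) had a median of -0.32, and Fkbp5 was at -0.16 ± 0.25. Mt1 was its 1 member at an unadjusted p under 0.05, where 3.62% of all genes had lower values. In the immediate early list (15 tested, median -0.03) that member was Dusp1, a phosphatase, at -0.84 ± 0.35. Among the adipokines (7 tested, median -0.17) it was Apln, where 2.96% of all genes had higher values. Apln was at 4.91 to 13.4 CPM in ad-lib and 11.9 to 23.3 CPM in TAN (0.96 ± 0.40).

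No clock gene passed the adjusted test at this label. Arntl (Bmal1), the activator of the core loop, was at 23.7, 35.9, 25.3 and 44.1 CPM in ad-lib and at 44.5, 47.8, 51.2 and 40.4 CPM in TAN (0.51 ± 0.36, unadjusted p = 0.159). Of 12 core clock genes, 2 reached an unadjusted p under 0.05, both with higher values in TAN, against 2.96% of all genes, and the median was 0.00. One of them was the repressor Cry1 (18.3 to 38.1 against 38.4 to 48.7 CPM, 0.64 ± 0.26). Per2 was at 1.84, 8.68, 2.37 and 1.81 CPM against 8.65, 5.91, 9.47 and 6.08 CPM (1.02 ± 0.59, unadjusted p = 0.0895). Nr1d1, the REV-ERB repressor of Arntl, was at 14.9 to 18.3 and 6.96 to 16.8 CPM (-0.44 ± 0.52), and the output factor Dbp at 2.03 to 13.5 and 5.69 to 9.96 CPM (-0.10 ± 0.50). None of the 8 clock output genes reached an unadjusted p under 0.05.

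Levels of the clock genes across labels bear on the pair of time labels. In peripheral tissues of mice, Arntl is known to be highest near the start of the light phase, which was 8 a.m. here, and Dbp late in the light phase. In the count table the 8AM label had the highest Arntl mean of the 6 labels in both diets, 32.3 CPM in ad-lib and 46.0 CPM in TAN, and the lowest Dbp mean, 8.37 and 7.85 CPM. At the 8PM label, Arntl was at 15.3 CPM in ad-lib and 4.33 CPM in TAN and Dbp at 44.5 and 128 CPM. Dbp was highest at 4PM, at 102 and 154 CPM.

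Compared with the mean TAN effect of the other 5 labels, the effect at 8AM differed for 1 gene at an adjusted p under 0.05 (0.00501% of genes tested), which was Etfbkmt (difference -1.52 ± 0.26 on the log2 scale, adjusted p = 0.0175). That count rested on single libraries. It was 0 without TAN library 2 or 3 or ad-lib library 1 or 4, 11 without ad-lib library 3 and 2064 without ad-lib library 2, and DESeq2 gave 427 and limma voom 132. Its ad-lib means ran from 22.3 to 25.0 CPM over all 6 labels, while its TAN mean was 9.79 CPM at 8AM, 18.2 at 12PM, 29.2 at 4PM, 40.3 at 8PM, 21.3 at 12AM and 24.9 at 4AM. The 8AM mean was thus the lowest of the TAN group, and the 8PM label held the highest (8PM log2 fold change 0.83, adjusted p = 0.0224).

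Cyp51 was called at 2 labels, 8AM and 12AM, each 1 h after the end of a feeding window. Its TAN mean was 165 CPM at 12AM and 38.1 to 65.8 CPM at the 4 labels other than that and 8AM, and its ad-lib means were 29.8 to 61.4 CPM. The log2 fold change was 1.43 at 12AM (adjusted p = 0.00161) and -0.03 to 0.35 at the other 4 labels. Sqle had the same order, with log2 fold changes of 1.33 at 8AM, 1.497 at 12AM and -0.20 to 0.9998 elsewhere. For Sqle the adjusted p in edgeR was 0.0225 at 12AM, 0.0271 at 4PM and 0.216 at 8AM. Dhcr7 had 0.78, 1.11 and -0.16 to 0.48, with an adjusted p in edgeR of 0.00375 at 12AM and 0.248 at 8AM. Mvd did not follow this order, at 1.05 at 8AM, 1.18 at 12PM, 0.43 at 4PM, 1.10 at 8PM, 1.93 at 12AM and 0.32 at 4AM. Its adjusted p in edgeR was 0.00161 at 12AM, 0.0197 at 8PM and 0.444 at 8AM. For Cyp51 the difference between 8AM and the mean of the other labels was 0.74 ± 0.25 (adjusted p = 0.138) and for Sqle 0.80 ± 0.33 (adjusted p = 0.212). Over the whole cholesterol list, the median log2 fold change was 0.75 at 8AM, 0.24 at 12PM, 0.98 at 4PM, 0.30 at 8PM, 1.12 at 12AM and -0.10 at 4AM.

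Fatty acid synthesis followed another course. Its median log2 fold change was 1.10 at 8AM, 2.39 at 12PM, 2.25 at 4PM, 0.20 at 8PM, 1.40 at 12AM and 0.99 at 4AM. Elovl6 was at 2.33 at 8AM and at 3.81 at 12PM (adjusted p = 0.0061) and 3.99 at 4PM (adjusted p = 0.00397). For Fasn the TAN means were 2801 CPM at 8AM and 3501 CPM at 12PM, and the ad-lib means 1299 and 568 CPM. The smaller ratio at 8AM thus came with a lower TAN mean and a higher ad-lib mean. That ad-lib mean included library 1 at 3040 CPM, and the difference between these labels was not tested. For Slc2a5 the log2 fold change was positive at every label, from 1.40 at 8PM to 4.74 at 12PM on the log2 scale.

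**Figure D4:**
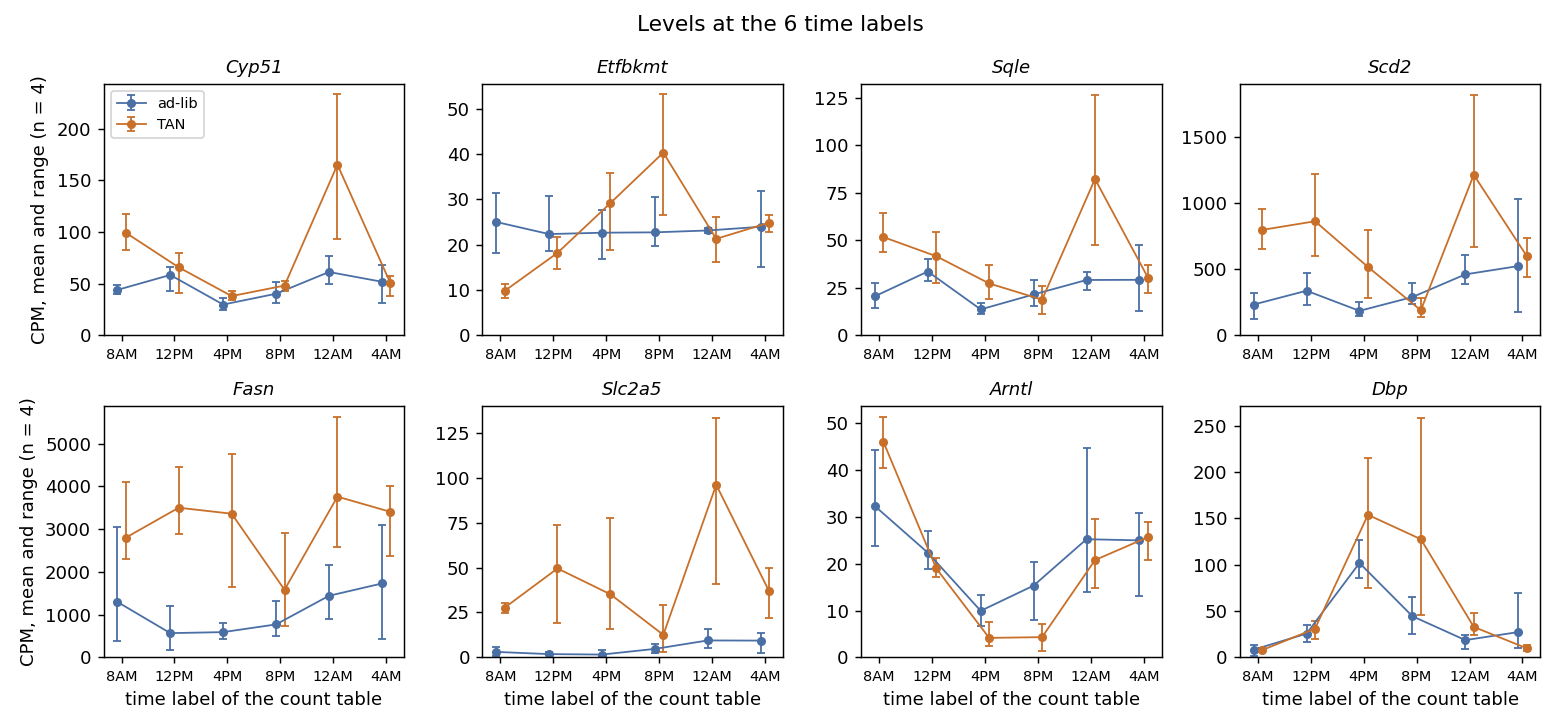
Mean CPM of 8 genes at the 6 time labels of the count table, with ad-lib in blue, TAN in orange and bars from the lowest to the highest library (n = 4 a point). Cyp51 and Sqle in TAN are highest at 12AM and next highest at 8AM, Etfbkmt in TAN is lowest at 8AM (9.79 CPM), and Arntl is highest at 8AM in both diets.

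Proteasome subunits showed a difference between labels that the 8AM contrast alone did not. At 8AM none of the 31 reached an unadjusted p under 0.05, and the median log2 fold change was -0.11. At 4PM, 8PM and 12AM the medians were 0.62, 0.53 and 0.47. At 12PM and 4AM they were -0.04 and -0.26, so a low median was not particular to 8AM. In the comparison of 8AM with the mean of the other labels, 14 of 31 subunits were lower at an unadjusted p under 0.05, against 7.85% of all genes, and none was higher, against 8.88%. No subunit passed the adjusted test in that comparison. Psmb7, a catalytic subunit, was at 85.8, 52.9, 94.4 and 160 CPM in ad-lib and 80.3, 80.2, 79.3 and 67.4 CPM in TAN at 8AM (-0.35 ± 0.27), and its log2 fold change was 1.04 at 4PM and 0.85 at 8PM.

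The contrast at the label 12 h apart, 8PM, had the following values beside those at 8AM. Acly had a log2 fold change of 2.12 at 8AM and 0.15 at 8PM, Scd2 1.77 and -0.61, Acss2 1.603 and 0.20, Fasn 1.11 and 1.03, Pfkp 0.85 and -0.66, and Srp72 0.76 and -0.75. At 8PM it was the TAN group that had the wide spread between replicates, at a biological coefficient of variation of 54.2%.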

How the data were processed

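Bulk RNA-seq reads were processed by the authors, whose notes name TopHat 1.3.3, DESeq2 1.20.0, limma and edgeR with the builds mm9, mm10 and GRCm38. The file analysed holds the deposited counts, whole numbers of reads per gene and library before any normalization, and 56 of 62 named genes have the start and end of GENCODE M21 (GRCm38). The deposited FPKM table holds the authors' group means per gene, which have no replicate values and were used only to check labels and to compare 2 paralogs per length. Whether counting used strand is not given in the sources used here.

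All 48 libraries in 12 groups of 4 were fitted together in edgeR 4.0.16 (R 4.3.3) with TMM factors, the filter on low counts at a minimum of 10, a prior count of 2 and the robust quasi-likelihood test. A call required a Benjamini-Hochberg adjusted p under 0.05 over all 19977 genes and an absolute log2 fold change over 1. SE is the log2 fold change over the square root of F. CPM values are given with SD over 4 libraries, and precision rests on counting error and the spread between libraries. The study's tables name each library for an animal. The p-values use a spread estimated over all 12 groups together, whose biological coefficients of variation ran from 13.6% to 54.2%. They therefore do not measure the spread of the 8 libraries of this contrast alone. A second contrast set the 8AM effect against the mean effect of the other 5 labels. Members, gene lists and named genes were chosen with earlier results of these data known. Named genes are every called gene, the 10 smallest p in each direction with no overlap between diets, up to 4 genes of each list at an unadjusted p under 0.05, set members of the main lists, and the most abundant marker of each cell type. For 5 of these 67 genes, 1 of them a called gene, and for some other list members, values are not reported here.

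Same-numbered libraries did not deviate together (correlations -0.52 to -0.20, none over 0.1), so no pairing was used. Alternatives were RLE factors, other filters, DESeq2 1.42.0, limma 3.58.1 voom, a separate fit of 8 libraries, a replicate block, removal of mitochondrially encoded genes and leaving out each library. Group quality weights, a lymphocyte covariate and leaving out ad-lib libraries 1 and 4 were chosen after seeing the data. On simulated counts for this comparison, with 19431 genes tested, 29% of genes changed by 1 and 70% of genes changed by 2 on the log2 scale were recovered, with 2 false calls. Recovery was at an adjusted p under 0.05 with no fold threshold, and the changed genes were above a minimum mean count. Promoter windows are from RefSeq (GRCm38.p6), which held 15 of the 20 cholesterol genes.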

Additional observations from a re-analysis of the deposited data

Results flagged for a closer look

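In 152 groups of 4 libraries examined, 10 had 1 library far from the other 3 by Dixon's ratio of gap to range at the 95% level, and chance flags about 1 group in 20. For ad-lib the high library was 1 for Acss2 (ratio 0.846, 277 CPM), 3 for Cirbp (0.863, 156 CPM), Acta1 (0.876, 303 CPM) and the summed skeletal muscle markers (0.838, 917 CPM), and 2 for Per2 (0.917, 8.68 CPM) and Ucp1 (ratio 1, at 0.425 CPM with the other 3 at 0). For TAN it was library 4 for Fasn (0.936, 4091 CPM), Mbp (0.869, 134 CPM), the summed skeletal muscle markers (0.845, 130 CPM) and the number of genes with at least 10 counts (0.848, 16547 genes). The TAN effect on Etfbkmt at 8AM differed from the mean effect of the other 5 labels by -1.52 on the log2 scale (adjusted p = 0.0175, edgeR).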

How the results depend on the processing

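The calls were few and depended on the fit. Against 2 genes higher, 1 lower and 1 whose 8AM effect differed from the other labels, RLE factors gave 2, 2 and 2, no filter on low counts 1, 1 and 1, a minimum of 10 counts in every library 3, 2 and 70, and DESeq2 14, 35 and 427. DESeq2's calls included the 3 of the reported test. Limma voom gave 0, 0 and 132, voom with group weights 0, 0 and 150, and a separate edgeR fit of the 8 libraries 0 and 0. At an unadjusted p under 0.05 with any fold change, those 3 fits had 1297 higher and 334 lower, 1002 and 429, and 244 and 393. A covariate for lymphocyte markers gave 13, 1 and 27, and leaving out ad-lib libraries 1 and 4 gave 0, 0 and 0 (edgeR, 291 and 261 at an unadjusted p under 0.05). Dropping the adjustment while keeping the fold threshold left 204 genes higher and 231 lower.

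Leaving out 1 library gave 0 to 9 genes higher, 0 to 10 lower and 0 to 2064 whose effect differed between labels. The highest values came without ad-lib library 2, the one that resembled TAN, and without ad-lib library 3 the counts were 1, 7 and 11. The self-test gave both diets the same spread for a gene, taken from all 48 libraries. At 8AM the biological coefficient of variation was 45.1% for ad-lib and 14.9% for TAN. Its recovery therefore does not bound what 4 against 4 could show here.

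Voom and the replicate block moved the median of all genes to 0.13, from 0.01. With the replicate block, 1 gene was higher, 1 lower and 5 differed between labels, and the numbers were not shown to pair the libraries. Cyp51 then had an adjusted p of 0.127, and Dbp turned to 0.12.

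Of 62 named genes, the sign turned for Adrb3 (0.11), Cfd (0.26), Pecam1 (-0.00918), Epcam (-0.40), Pgam1 (0.11), Akt1 (-0.26) and Btk (-0.0821) without ad-lib libraries 1 and 4, and for Epcam (-0.18), Pgam1 (0.0572) and Akt1 (-0.0934) with the lymphocyte covariate. Akt1, near 0 throughout, was at -0.0236 with RLE factors, -0.0244 with no filter, -0.0238 with DESeq2 and -0.00238 in the separate fit. With 1 library left out the log2 fold changes ran from -0.76 to 0.24 for Lyz2, -0.22 to 0.93 for Epcam, -0.38 to 0.0699 for Mbp, -0.42 to 0.22 for Dbp, -0.27 to 0.0231 for Pgam1 and -0.18 to 0.33 for Akt1. The difference in mean total counts ran from about -4410140 to 157319, and that in mitochondrial percent from -1.04 to 0.866. The causes of these shifts were not tested.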
